A study of Mus musculus with 2 samples.

Results

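The Ikaros family factors are 5 genes, Ikzf1 (Ikaros), Ikzf2 (Helios), Ikzf3 (Aiolos), Ikzf4 (Eos) and Ikzf5 (Pegasus). They were chosen by name, as every probe set annotated to a single member symbol, which gave 13 of 45037 probe sets and 5 of 18193 named genes. RNA came from mouse 5cc7 T cells, whose T cell receptor is known to bind a moth cytochrome c peptide. Per the labels the cells met this peptide (MCC) in culture, and RNA was isolated on day 5, when they were blasts. One group of 2 Affymetrix mouse 430 2.0 arrays was hybridised, called set 1 and set 2 here. No resting, earlier or untreated sample was part of the design, and no animal, age or sorting step is given in the labels. The labels do not say whether each array received RNA of its own culture, so their spread may be purely technical.

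Ikaros family proteins are zinc finger transcription factors of lymphocytes. Fingers near the amino terminus bind DNA, and a pair near the carboxyl terminus lets members join with each other, so that forms without DNA-binding fingers can block their partners. They bring chromatin-remodelling complexes such as NuRD to their target genes. Ikaros and Aiolos shape lymphocyte development and restrain activation, Helios is prominent in regulatory T cells and also appears in activated T cells, and Eos is a partner of the regulatory T cell factor Foxp3. Pegasus is the most divergent member.

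All 5 genes were detected in the blasts, but not by every probe set. Values are deposited intensities on a linear scale, given for each array and as the mean ± SD (n = 2). Detection, or being above background, required a value over a bound on both arrays. The bound was the 95th percentile of probe sets for genes of liver, eye, pancreas and kidney, and it stood at 51.1 on set 1 and 55.8 on set 2. By this rule 9 of the 13 member probe sets were above background, against 38.5% of all probe sets. For genes, which needed at least 1 such probe set, the count was 5 of 5, against 47.9% of all named genes. With so few members these counts describe the family and compare nothing. Of the remaining probe sets, 3 were under the bound on both arrays and 1 exceeded it on set 2 alone. In 2 genes, Ikzf1 and Ikzf5, every probe set was above background. The intensity of a probe set depends on its probes as well as on its transcript, so the order of the intensities below is not an order of transcript abundance.

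**Figure D1:**
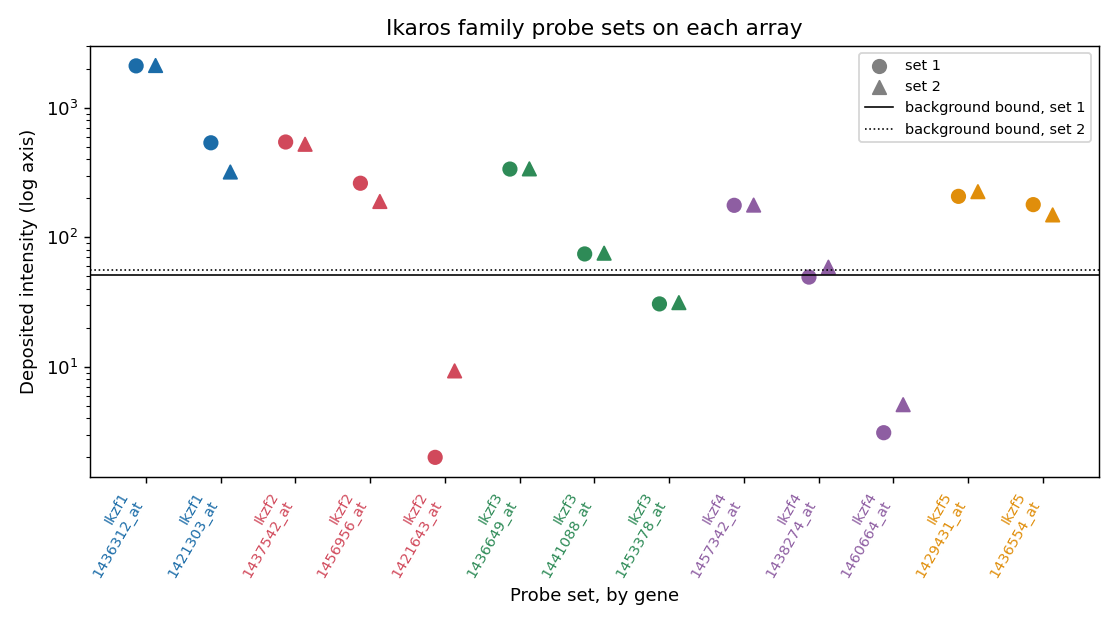
Deposited intensity (log axis) of the 13 Ikaros family probe sets, grouped by gene; circles are set 1, triangles set 2, and the solid and dotted lines are the background bounds of 51.1 and 55.8. The highest pair belongs to Ikzf1 at 2106.9 and 2120.1, and Ikzf2 and Ikzf4 each have a probe set under 10 on both arrays.

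Ikzf1, the founding member, had the brightest probe set of the family. Probe set 1436312_at read 2106.9 on set 1 and 2120.1 on set 2, a mean of 2113.5 ± 9.33. That is 41.3 times the bound on set 1 and 38.0 times on set 2, and the arrays were nearly equal. The other Ikzf1 probe set, 1421303_at, read 536.7 and 319.2, a mean of 428 ± 154. It was also well above the bound on both arrays, but set 1 exceeded set 2 by 1.68-fold. The pair therefore agreed that Ikzf1 was detected and disagreed on whether the arrays differed.

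Ikzf2, which encodes Helios, was read clearly by 2 of its 3 probe sets. Probe set 1437542_at gave 544.3 and 522.7 (534 ± 15.3), and 1456956_at gave 261.5 and 189 (225 ± 51.3). Both were lower on set 2, by 1.04-fold and 1.38-fold before centring. The third probe set, 1421643_at, was at 2 and 9.3, far under the bound on each array. The brightest Ikzf2 probe set was therefore at least 9.98 times the dimmest, with the latter set to the bound.

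Ikzf3, which encodes Aiolos, was measured with close replicate values at every probe set. The brightest, 1436649_at, read 336.4 and 337.6 (337 ± 0.849). A dimmer one, 1441088_at, read 74.4 and 75.4, which is 1.46 and 1.35 times the bounds. The last, 1453378_at, read 30.6 and 31.3 and was not above background. All 3 differed by at most 1.02-fold between the arrays. The brightest was at least 6.31 times the last, set to the bound.

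Ikzf4, which encodes Eos, rested on a single probe set. 1457342_at read 176.6 and 177.3 (177 ± 0.495), or 3.46 and 3.18 times the bounds. Probe set 1438274_at lay at the bound, with 49.3 on set 1 just under it and 58.8 on set 2 just over it. The third, 1460664_at, was at 3.1 and 5.1. When the median of its probe sets gave the level, Ikzf4 read 54.05 and was no longer called, and the family count became 4 of 5. Ikzf4 thus had the fewest detected probe sets of the members.

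Ikzf5, which encodes Pegasus, had 2 probe sets of similar intensity. 1429431_at read 207.1 and 225.1 (216 ± 12.7), and 1436554_at read 178.8 and 148.9 (164 ± 21.1). The first was higher on set 2, by 1.09-fold, and the second lower, by 1.20-fold, before centring. Probe sets with means between 128 and 256 had an SD of 0.24 in the log2 difference between the arrays. The opposite directions are therefore not read as a change of the gene. Their means lay 1.32 times apart.

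By their brightest probe sets the members stood in the order Ikzf1, Ikzf2, Ikzf3, Ikzf5 and Ikzf4, and no neighbours in this order overlapped in the values of their arrays. Taking the median over the probe sets placed Ikzf5 at 190 above Ikzf3 at 74.9, with Ikzf1 at 1271, Ikzf2 at 225 and Ikzf4 at 54.05. The positions of the lower members therefore depended on which probe sets were read. Disagreement of this kind was common on the array. Of 5727 genes above background with several probe sets, 3574 (62.4%) had at least 1 that was not, as did 3 of the 5 members.

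The arrays agreed closely for most member probe sets above background. They agreed least for a probe set of Ikzf1, and somewhat less than for the rest for a probe set of Ikzf2 and of Ikzf5. Each difference is the log2 ratio of set 2 over set 1, centred by subtracting 0.03, the median ratio of probe sets above background. Among the 9 member probe sets above background the differences ran from -0.78 to 0.09 with a median of -0.02, and 8 were below 0. That tally rests on the small centring step, since in the values as deposited 4 of the 9 were lower on set 2 and 5 higher, with a median of 0.01. The SD over all probe sets above background was 0.24. Only 1 of the 9 passed 1.5-fold, against 2.89% of all probe sets above background. This was 1421303_at of Ikzf1, whose difference was -0.78. Its neighbours in intensity, 3135 probe sets with means between 256 and 512, had an SD of 0.19, and 34 of them (1.08%) passed 1.5-fold. The difference of 1421303_at is thus large for its intensity, while the brighter Ikzf1 probe set differed by -0.02. The next largest were 1456956_at of Ikzf2 at -0.50 and 1436554_at of Ikzf5 at -0.29, both within 1.5-fold. Both exceeded the SD of 0.24 among probe sets with means between 128 and 256, that of Ikzf5 only slightly. An SD is a spread and not a limit.

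Without a filter on low values 3 of the 13 passed 1.5-fold, against 29.2% of all probe sets. The additional ones were the dimmest of Ikzf2, at 2.19, and of Ikzf4, at 0.69. Their means were under 10, and among all probe sets with means under 32 the SD was 1.20 and 52.8% passed 1.5-fold. At such intensities a difference of this size was common. With 16 added to each intensity before the log2, 1 member probe set passed.

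**Figure D2:**
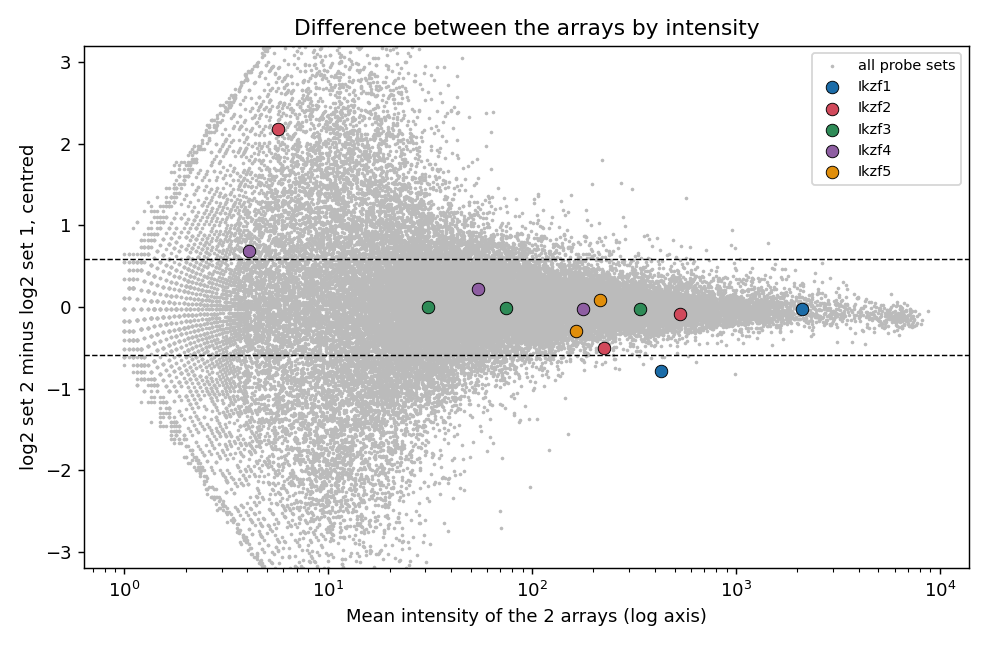
Centred log2 difference between the arrays (set 2 minus set 1) against mean intensity (log axis) for all probe sets in grey and the 13 member probe sets in colour; dashed lines mark 1.5-fold, and 352 probe sets with means under 1 and 329 beyond 3.2 on the vertical axis are not drawn. The grey cloud narrows with intensity, and of the member probe sets above background 1 point, Ikzf1 at -0.78, lies outside the dashed lines.

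Genes of the NuRD complex, the nucleosome-remodelling and histone deacetylase assembly with which Ikaros, Aiolos and Helios associate, were detected in 13 of 13 cases. Their median log2 intensity was 8.76, beside 5.75 over all named genes, of which 47.9% were above background. Rbbp4 and Rbbp7, histone-binding subunits, read 1404.2 and 1667.1, and 1217.1 and 1296.3, on the 2 arrays. The deacetylase Hdac1 read 763.7 and 802.7. Chd4, the remodelling ATPase, and Mbd3, a methyl-CpG-binding-domain protein, lie outside the rule for named genes and were chosen after their values were seen. They read 279.6 and 312.4 (Chd4), and 86.7 and 66.7 (Mbd3, the dimmest gene of the list).

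Other corepressors that Ikaros can recruit were detected in 4 of 5 measured cases, against 47.9% of all named genes. The median log2 intensity of the list was 8.56. The CtBP gene Ctbp1 read 757.4 and 796.5, the scaffold gene Sin3b 765.3 and 774.2, and Sap30, a Sin3 subunit, 362.5 and 392.3. Its relative Ctbp2 was not above background at 42.6 and 38.7 in the brighter of its 2 probe sets. With the median of all probe sets as bound, 36.4 and 37.9, Ctbp2 would pass as well.

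SWI/SNF genes encode a nucleosome remodeller also found with Ikaros. In 10 of 10 cases they were above background (median log2 intensity 8.57), against 47.9% of all named genes. The subunit genes Smarcd2, Arid1a and Actl6a had the highest intensities, with means of 1490 ± 78.5, 890 ± 19.6 and 476 ± 59.9.

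Enzymes that act on Ikaros proteins were also broadly detected. Casein kinase 2 phosphorylates Ikaros and weakens its DNA binding, and protein phosphatase 1 reverses this. The genes for their catalytic subunits were above background in 5 of 5 measured cases (median log2 intensity 9.86), against 47.9% of all named genes. A gene with more probe sets had more chances to pass. Of the 20 probe sets of this list 16 were above background, against 38.5% of all probe sets. The kinase genes Csnk2a1 and Csnk2a2, named outside the rule, were detected by 3 of 6 and 6 of 7 probe sets. The phosphatase genes Ppp1ca, Ppp1cc and Ppp1cb read 2799 ± 0.849, 2571 ± 0.919 and 933 ± 154. The last of these was the least even, at 823.5 and 1041.5.

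Cereblon is the substrate receptor of a ubiquitin ligase through which drugs of the thalidomide class direct human Ikaros and Aiolos to degradation. Its gene Crbn read 773.6 and 844 (809 ± 49.8), and all 3 of its probe sets were above background. The ligase scaffold Cul4b and the adaptor Ddb1 read 504 ± 10.2 and 493 ± 25.1. Of this list 4 of 5 genes were detected (median log2 intensity 8.95), against 47.9% of all named genes. The exception was the RING subunit gene Rbx1, at 45.4 and 31.2 on the only probe set annotated to it alone. Any probe set that carries its symbol with others, or is unlisted, was not read, so Rbx1 may be expressed.

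**Figure D3:**
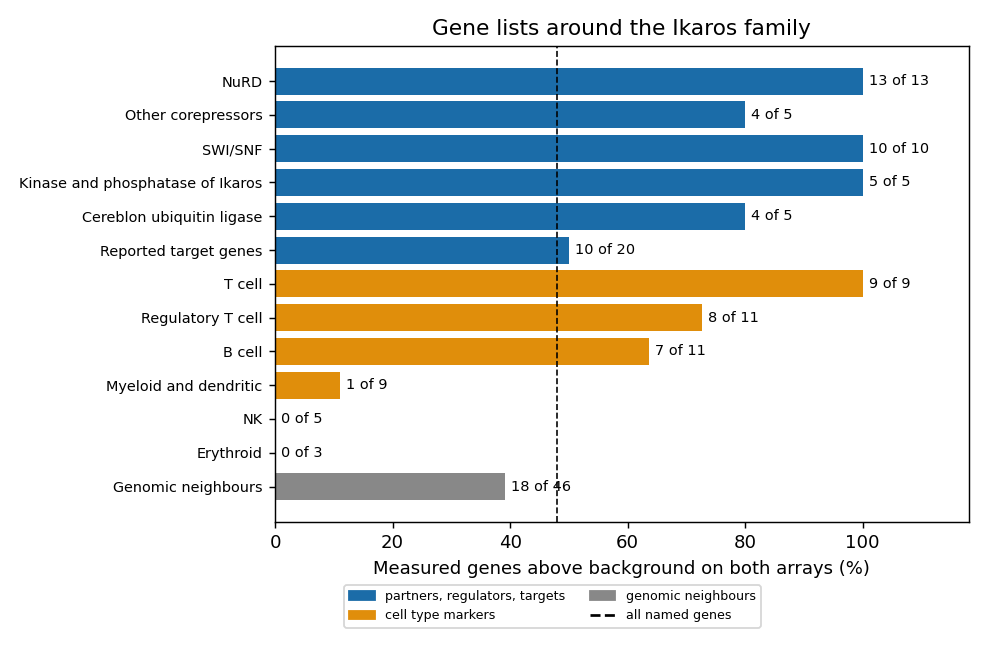
Percent of measured genes above background on both arrays for lists of partners, regulators and targets (blue), cell type markers (orange) and genomic neighbours (grey), with counts beside the bars; the dashed line is the 47.9% of all named genes. Bars of NuRD, SWI/SNF, the kinase and phosphatase list and the T cell list reach 100%, and the NK and erythroid bars are at 0.

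Genes reported elsewhere to be bound or regulated by the family gave a divided picture. Of 20 measured, 10 were above background (50%, against 47.9% of all named genes), with a median log2 intensity of 5.56. With the median over the probe sets of a gene 7 were. The highest were Il7r, the gene of the interleukin 7 receptor, at 2953 and 2835, the coreceptor gene Cd4 at 1186.1 and 1051.4 and the cell cycle kinase gene Cdk6 at 734.9 and 735.9. Among those not detected were Hes1, a Notch target, at 39.1 and 30.5, and Foxp3 at 18.6 and 12.9. The following genes were chosen after their values were seen. The cytokine genes Il2, which Ikaros and Aiolos are known to repress, Ifng and Il10 were not above background, with means of 15.9 ± 11.0, 25.6 ± 2.55 and 38.5 ± 2.69. Neither were the recombinase genes Rag1 and Rag2, while Tbx21, a target of Ikaros in helper T cells, was above background at 188.8 and 217.9. Dntt was just above the bounds at 55.2 and 60.1, in 1 of its 3 probe sets. Cd8a at 65.6 and 67.3 and Dtx1 at 108 and 92.3 were above background as well. Only 2 of 5 Cd8a probe sets and 1 of 2 Dtx1 probe sets passed. A single group cannot show whether any of these levels depends on a family member.

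Cell type markers were read to place the family in these cells. All 9 measured T cell markers were above background, against 47.9% of all named genes. They were led by Cd3d at 4671 ± 299, Thy1 at 3449 ± 139 and Cd3g at 2843 ± 11.4. In bulk RNA, fewer cells of a type and less RNA per cell cannot be told apart. Since Ikzf2 and Ikzf4 are linked with regulatory T cells, the genes of those cells were read beside them. Of 11 measured, 8 were above background (72.7%, against 47.9% of all named genes), with summed intensities of 4657.3 on set 1 and 4535.8 on set 2. With the median over the probe sets of a gene 6 were. The highest were Ctla4 at 1844.7 and 1827.6, Tnfrsf18 at 1004.3 and 890.5 and Tnfrsf4 at 660.2 and 624.6, receptors that activated T cells also express. The others above background, outside the rule for named genes, were Il2ra at 412.2 and 461.9, Itgae at 341.8 and 369.7, Izumo1r, Nrp1 and Entpd1. The lineage factor Foxp3 was not above background, and neither was Gpr83 at 52.1 and 48.8. Nt5e, also named outside the rule, was not either, at 23.8 and 4.8. Helios transcripts, by 2 of 3 probe sets, and Eos transcripts, by 1 of 3, were therefore detected in samples where Foxp3, read by 1 probe set, was not. With the median over its probe sets Eos was not called either.

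B cells express Ikzf1 and Ikzf3, and their markers were read as well. The median log2 intensity of these markers was 6.29, against 10.58 for the T cell markers and 5.75 over all named genes. Of 11 measured B cell genes 7 were above background (63.6%, against 47.9% of all named genes), with summed intensities of 1351.7 and 1324.8. They included Ms4a1 at 389.7 and 365.1, Cd22 at 228.1 and 213.9 and Cd79b at 166.2 and 164.5. Cr2 at 37.1 and 52.2 and Ebf1, a factor that defines the lineage, at 27.4 and 47.8 were not. The part of B cell RNA in the Ikzf1 and Ikzf3 values was not tested.

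Markers of other cells were mostly undetected, while 47.9% of all named genes were above background. In the myeloid and dendritic list 1 of 9 genes was above background, Csf1r at 57.3 and 146.7, but the count was 3 on set 2 alone or with the 90th percentile as bound and 4 with the median of all probe sets as bound. The summed intensity of that list was 275.3 on set 1 and 450.9 on set 2. Adgre1 and C1qa, markers of macrophages, were not above background, with Adgre1 at 39.7 and 76.6 and C1qa at 2.7 and 2.1. In the NK list 0 of 5 genes passed, and 1 did on set 1 alone. Fcgr3 and Klra1 of that list read 63.2 and 52.6, and 0.9 and 0.7. None of 3 measured erythroid genes passed, with Hba-a1 at 39.8 and 29.8 and Alas2 at 1.4 and 1.3. The rise of the myeloid sum on set 2 came from Csf1r, the 1 detected gene, and from genes that were not above background, such as Adgre1.

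**Figure D4:**
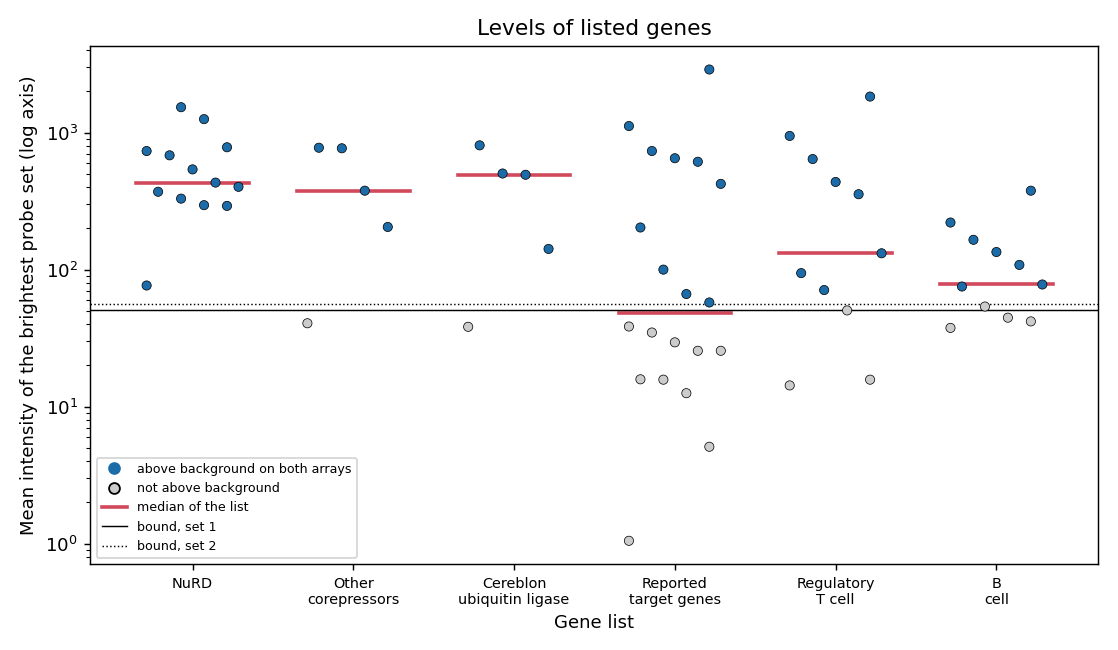
Mean intensity (log axis) of the brightest probe set of each measured gene in 6 lists; blue points are above background on both arrays, grey points are not, red bars are list medians of these intensities, and the horizontal lines are the bounds of 51.1 (solid) and 55.8 (dotted). All NuRD points lie above the bounds, while the reported target genes run from 1.05 for Rag1 to 2894 for Il7r.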

How the data were processed

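The authors deposited 1 intensity value per probe set and array, linear by its range and never below 0. How they summarised, corrected and scaled the probes is not given in the sources used here. Array medians were 36.4 and 37.9. Of 45101 probe sets 64 manufacturer controls were left out. Gene names came from GEO's platform annotation (34958 probe sets with 1 symbol, 932 with several, 9211 unlisted), checked by Entrez identifier against RefSeq of GRCm38.p6 (34741 matched, 0 symbols changed). No probe set with several symbols names a member. Listed genes were read by probe sets with 1 symbol alone, and probe sets with several symbols were not searched for them.

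The background list held 35 genes, 31 of them measured by 40 probe sets; 1 of the genes was above its own bound. Gene levels were those of the brightest probe set. Intensities under 1 were set to 1 before log2. With 1 group of 2 arrays no test was possible, and precision is limited by having so few arrays.

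Members and lists were chosen with earlier results of these data known. Named were all members, up to 3 of the brightest detected and 2 undetected genes (alphabetical) of each list, Foxp3 and the adjacent neighbours of members, the 5 nearest protein-coding genes on each side being a list; names outside the rule are marked. Alternatives covered the bound, each array alone, probe set choice, normalization and the log2 offset. The centring, the fold call and the choice of the brightest probe set were tested on simulated data. Those had the same spread at all intensities, unlike these arrays, and the background bound was not tested. Python 3.11.15, numpy 2.4.6, pandas 2.3.3 and matplotlib 3.10.9 were used.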

Additional observations from a re-analysis of the deposited data

How the results depend on the processing

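The family count of probe sets above background was 9, and it was 10 with the bound at the 90th percentile, with the bound at the median of all probe sets and on set 2 alone. It was 9 at the 99th percentile, on set 1 alone and without probe sets named _x_at or _s_at; 1438274_at of Ikzf4 made the difference between the bounds. The gene count was 5 in each of these settings and 4 with the median over probe sets. That median also lowered every member's level, to 1271 for Ikzf1, 225 for Ikzf2, 74.9 for Ikzf3, 54.05 for Ikzf4 and 190 for Ikzf5, since it brings in dimmer probe sets; quantile normalization moved none by more than the SD between the arrays. With 2 arrays, leaving out either shifts a mean by less than the SD by construction, so this says nothing about stability. The number of member probe sets past 1.5-fold was 3 and fell to 1 with 16 added before log2 or above background alone, both of which leave out or damp the dimmest values. Their median difference stayed between -0.02 and 0.01. The 46 detected genes of the partner, regulator and target lists ranged from 43 to 48. Of 84 alternative counts for single lists 79 were within 1.5 times the main count, and the other 5 were of the myeloid and NK lists. No paired analysis was possible because there is a single group.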

Other observations

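Genes next to the members on their chromosomes were read as a further list, from the order of protein-coding genes in RefSeq. Of 46 measured neighbours 18 were above background (39.1%, against 47.9% of all named genes), and they were unevenly spread. Around Ikzf4, on chromosome 10, 9 of 10 were detected, among them the ribosomal protein genes Rpl41 at 7174 ± 700 and Rps26 at 5118 ± 13.3, the latter adjacent to Ikzf4, and the diacylglycerol kinase gene Dgka at 2578 ± 146. The adjacent gene on the other side, Suox, a sulfite oxidase, read 172.8 and 205.4. Ikzf1 on chromosome 11 was the opposite case: 1 of 10 measured neighbours was detected, the adjacent Fignl1 at 153.9 and 139.6, while the gene on its other side, 4930512M02Rik, read 10.5 and 6.8.

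Ikzf3, also on chromosome 11, had 1 of 7 measured neighbours above background, Mien1 at 443.1 and 428.8, which is named outside the rule. Its adjacent genes Grb7 and Zpbp2 were not, at 49.2 and 35.7, and 44.5 and 32.9. For Ikzf2 on chromosome 1 the count was 3 of 10, and neither adjacent gene, Erbb4 at 7.3 and 2.8 or Spag16 at 34.9 and 26.9, was among them. Ikzf5 on chromosome 7 had 4 of 9, including both adjacent genes, Pstk at 129.5 and 138.6 and Acadsb at 57.5 and 70.5. Genes of the ERBB receptor family lie near 3 of the members, and Erbb3, near Ikzf4, was the one above background, at 64.8 and 96.7, against 6.6 and 23.8 for Erbb2 near Ikzf3; these were chosen after their values were seen. Abca12, near Ikzf2 and undetected, read 31.3 and 38.8.

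The dimmest probe set of Ikzf1, Ikzf2 and Ikzf4 was in each case the one whose representative sequence in the annotation is a RefSeq messenger RNA, a pattern noticed after the values were seen. Of 971 genes with 1 such probe set, at least 1 other and a detected probe set, the RefSeq one was the dimmest of its gene in 291 (30%). Why these probe sets read low was not tested.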
